A study of Mus musculus with 1470 samples.

Results

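Stab1, Stab2, Lyve1, Mrc1, Clec4g, Scarb1, Marco and Msr1 are 8 genes for receptors with which sinusoidal endothelial cells and Kupffer cells, the resident macrophages of the liver, take up material from blood. They were chosen by symbol, as known scavenger receptors of these cells, and make up 8 of the 14915 gene rows of the expression table. Expression was measured by scRNA-seq with Smart-seq2, which reads whole transcripts and counts no molecular identifiers, in 1470 single non-parenchymal cells (NPCs) of mouse liver. The cells came from male wild-type C57BL/6J mice on a high-fat diet (HFD, 3 mice, 752 cells) or a normal diet (ND, 3 mice, 718 cells); the HFD began at 5 weeks of age and lasted 9 weeks, and all groups share the wild-type background, so that diet is the only factor that differs by design. Livers were digested by collagenase perfusion, hepatocytes were spun out at low speed and live cells were sorted into plates, so the cells seen are those that survived these steps. Mice are the replicates, and each mouse is named by diet and number (ND1 to ND3, HFD1 to HFD3). No run or plate is named in the labels, but the cell titles carry 1 code for each of 5 mice, while the titles of HFD2 have another format without such a code. What the code marks is not stated, and it cannot be told apart from the mouse.

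The receptors fall into several families. Stab1 and Stab2 encode the stabilins, large endocytic receptors of sinusoidal endothelium that bind modified lipoproteins and, for Stab2, hyaluronan. Lyve1 encodes a hyaluronan receptor known from lymphatic and sinusoidal endothelium, Mrc1 the mannose receptor, and Clec4g a C-type lectin of sinusoidal endothelium also called LSECtin. Scarb1 encodes the class B receptor SR-B1, which takes cholesterol from high-density lipoprotein, while Marco and Msr1 encode class A receptors that bind modified lipoproteins and microbial surfaces and are best known from macrophages.

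In the GRCm38.p6 assembly, Stab1 lies at chr14:31139017-31168651, Stab2 at chr10:86841194-87008038, Lyve1 at chr7:110850607-110862953 and Mrc1 at chr2:14229414-14332023. Clec4g lies at chr8:3707066-3720695, Scarb1 at chr5:125277087-125341094, Marco at chr1:120474538-120505024 and Msr1 at chr8:39543232-39642750. The 300 bases around the RefSeq start (250 before and 50 after it, GRCm38.p6) are given below for Stab1 (chr14:31168592-31168891, minus strand), Stab2 (chr10:87007893-87008192, minus strand), Clec4g (chr8:3720602-3720901, minus strand) and Mrc1 (chr2:14229164-14229463, plus strand), because these members had the highest levels in endothelial-like cells and varied together between those cells. For Stab1, Stab2 and Clec4g the start used lies inside the locus given above and is not its outer end. Capitals mark the only motif match found.
Stab1: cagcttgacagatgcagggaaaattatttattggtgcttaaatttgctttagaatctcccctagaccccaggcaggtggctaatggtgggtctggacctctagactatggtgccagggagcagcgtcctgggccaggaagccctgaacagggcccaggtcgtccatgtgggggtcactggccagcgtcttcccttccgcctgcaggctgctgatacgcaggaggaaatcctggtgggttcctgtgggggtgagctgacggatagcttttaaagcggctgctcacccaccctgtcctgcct
Stab2: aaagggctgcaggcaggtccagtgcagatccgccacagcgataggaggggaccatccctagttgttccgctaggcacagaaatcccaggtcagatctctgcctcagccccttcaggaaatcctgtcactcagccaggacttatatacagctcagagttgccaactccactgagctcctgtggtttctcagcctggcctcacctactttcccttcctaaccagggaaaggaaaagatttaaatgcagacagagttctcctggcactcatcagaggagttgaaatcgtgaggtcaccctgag
Clec4g: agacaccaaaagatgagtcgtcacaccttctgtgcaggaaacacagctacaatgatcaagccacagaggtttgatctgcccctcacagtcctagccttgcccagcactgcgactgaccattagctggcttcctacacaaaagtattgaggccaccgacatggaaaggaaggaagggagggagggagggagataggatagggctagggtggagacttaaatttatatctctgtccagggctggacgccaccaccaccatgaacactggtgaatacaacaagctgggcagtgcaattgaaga
Mrc1: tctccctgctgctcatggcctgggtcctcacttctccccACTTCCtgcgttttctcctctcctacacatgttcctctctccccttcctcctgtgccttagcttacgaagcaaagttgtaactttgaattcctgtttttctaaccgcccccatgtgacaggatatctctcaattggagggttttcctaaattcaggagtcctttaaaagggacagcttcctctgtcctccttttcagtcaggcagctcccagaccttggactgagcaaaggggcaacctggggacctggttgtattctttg
Both strands were searched for the GATA motifs AGATAA and TGATAA, present in 18.6% of 32851 promoters of this length, and for the ETS motif GGAAGT, present in 23.8%. The only match in the 5 member promoters at hand (Marco is the fifth) was an ETS motif on the minus strand of the Mrc1 promoter, at position −211 from the start. A match is a run of letters and no proof of binding, and a missing match says only that these letters are not in this window.

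Cells were clustered without the 8 members, and clusters were named from marker genes that did not include them. Endothelial-like cells numbered 459 (33 to 108 a mouse) and expressed all 14 endothelial markers, with a mean marker level between 7.57 and 8.47 log2(RPKM + 1) over mice. Kupffer-like cells numbered 250 (24 to 54 a mouse), with all 11 measured Kupffer markers and a mean marker level between 9.17 and 10.62. T-cell-like (300), B-cell-like (253) and monocyte-derived-macrophage-like (51) cells were the other classes with at least 5 cells in every mouse. No cluster was named conventional dendritic. The monocyte-derived-macrophage-like class had the highest mean level of conventional dendritic markers (2.84, against 0.78 to 1.54 in the other 4 classes). In 66.7% of its cells the class's own markers had the highest mean, so it may also hold dendritic cells. RPKM is the number of reads scaled by exon length and by the mapped reads of the cell, and the level given for a mouse below is the mean of log2(RPKM + 1) over its cells. The depth recovered from the values was a median of 87134 to 198233 exon reads a cell in the 6 mice. HFD2 had the fewest genes per endothelial-like cell (median 1775, against 2471 to 3539 in the other mice), and 93 of its endothelial-like cells (8 did not) fell into the smaller of the 2 endothelial-like clusters. B-cell-like cells, which are not known for these receptors, are used as the comparison for the other classes, though their hepatocyte marker level was lower than that of Kupffer-like cells (a mean of 2.94 against 6.16).

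**Figure D1:**
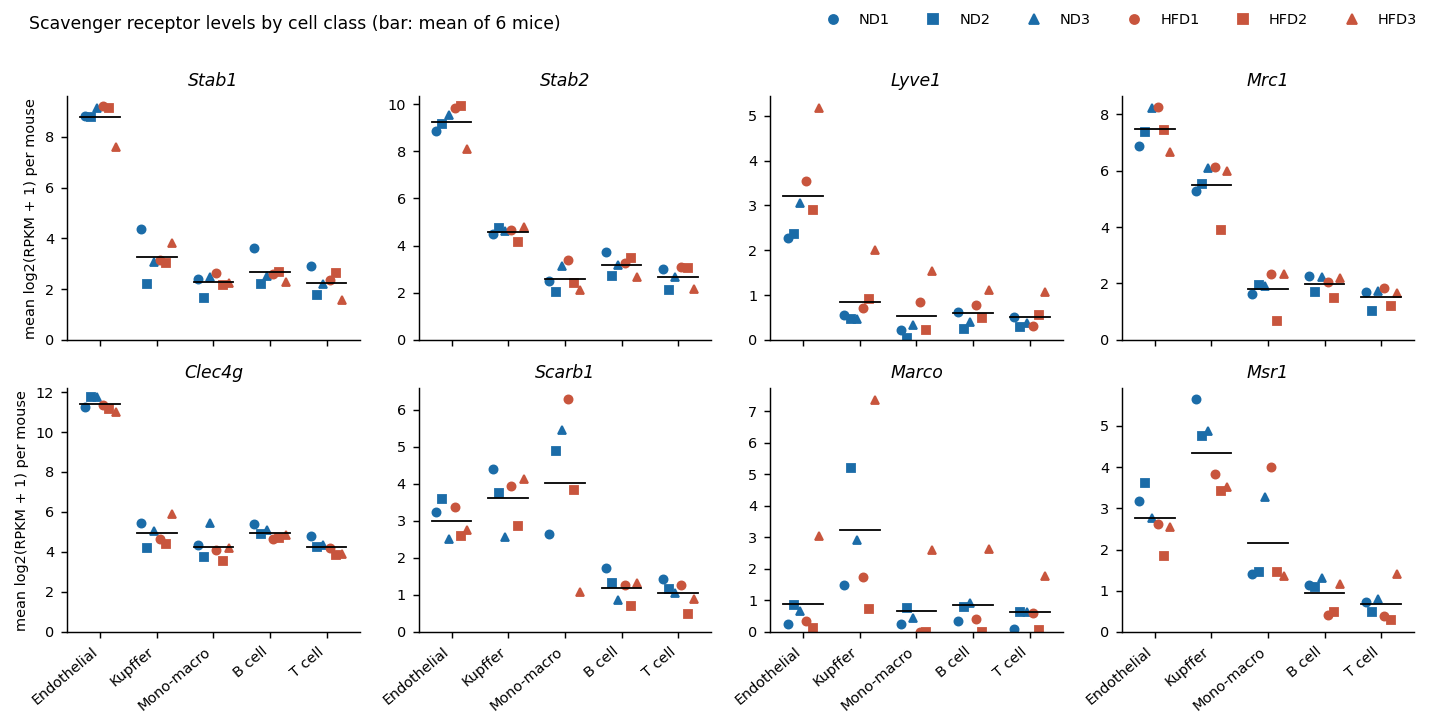
Mean log2(RPKM + 1) of each receptor gene per mouse (points; ND blue, HFD red) in the 5 classes with at least 5 cells in every mouse, with a bar at the mean of 6 mice. Stab1, Stab2, Clec4g and Mrc1 stand highest in endothelial-like cells, Msr1 and Marco in Kupffer-like cells, and Marco spreads most between mice.

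Clec4g was the highest of the 8 in endothelial-like cells. Its levels were 11.24, 11.75 and 11.77 log2(RPKM + 1) in ND1 to ND3 and 11.33, 11.17 and 11.02 in HFD1 to HFD3, or 11.38 ± 0.31 (SD, n = 6 mice), with a median of 3809 RPKM over all 459 cells. It reached 10 RPKM in 99.3% of these cells, but it also did so in 88.9% of B-cell-like cells, where its level was 4.93 ± 0.29. The stabilins followed. Stab2 stood at 8.86, 9.16 and 9.54 in the ND mice and 9.84, 9.93 and 8.11 in the HFD mice, and Stab1 at 8.83, 8.79 and 9.15 in the ND mice and 9.22, 9.15 and 7.61 in the HFD mice. HFD3 was the lowest mouse for both stabilins. Stab1 and Stab2 were found together at 10 RPKM or more in 439 of 459 endothelial-like cells, and in only 5 cells was neither found at that level.

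Mrc1 was the fourth of the endothelial members, at 6.88, 7.36, 8.22, 8.25, 7.45 and 6.66 log2(RPKM + 1) in ND1 to ND3 and HFD1 to HFD3, and reached 10 RPKM in 90.8% of endothelial-like cells. Lyve1 was far lower and patchy: 35.3% of endothelial-like cells reached 10 RPKM, and its median over these cells was 0.744 RPKM. No endothelial-like cell (0 of 459) held Lyve1 at 10 RPKM without Stab2 at that level, and 11 cells held neither. Lyve1 stood at 2.26, 2.37 and 3.06 in the ND mice and at 3.54, 2.90 and 5.18 in the HFD mice, so that HFD3 was far above the rest, with 20 of 33 cells at 10 RPKM.

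Scarb1 and Msr1 were found in a minority of endothelial-like cells, at 10 RPKM or more in 39.7% and 34.2%, against 9.88% and 7.91% of B-cell-like cells. Their endothelial levels were 3.01 ± 0.45 and 2.76 ± 0.60 log2(RPKM + 1) (SD, n = 6 mice). Marco was low in endothelial-like cells, at 0.11 to 0.85 in 5 mice and at 3.05 in HFD3. In HFD3 Marco was also the highest of all mice in B-cell-like cells (2.63, against 0 to 0.92 in the others), and so was the mean level of the 11 Kupffer markers in endothelial-like (4.90, against 1.57 to 4.13) and B-cell-like cells (4.19, against 1.31 to 3.30); the part of these in the Marco levels was not tested.

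Across single endothelial-like cells within a mouse, the highly expressed members varied together, as they did with other endothelial genes. Averaged over the 6 mice, Pearson's r over the 459 cells was 0.61 for Stab1 with Stab2, 0.47 for Stab1 with Clec4g and 0.45 for Stab2 with Mrc1. Lyve1 was related weakly to these 4 genes (0.17 to 0.19), and Msr1 hardly at all (−0.03 to 0.08). The same members correlated about as strongly with the mean of the 14 endothelial markers (Stab1 0.60, Stab2 0.65, Clec4g 0.56 and Mrc1 0.54). Cells of a mouse are not independent samples and differ in depth, and the number of genes detected correlated with Stab1 at 0.23 and with Stab2 at 0.28.

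Endothelial-like cells were then compared with Kupffer-like cells of the same mice, with limma and Benjamini-Hochberg adjustment over all 3912 genes tested. In this contrast 49.9% of genes passed an adjusted p of 0.05 (31.1% higher and 18.8% lower in endothelial-like cells), so a call alone is common. Lyve1 and Marco passed the filter on low values only through the class in which they are high (the means over mice in the other class were 0.85 and 0.88 log2(RPKM + 1)), so that their calls in this fit were fixed in part by the filter, and no count of called members is given. Each of the other 6 members had the same sign in 6 of 6 mice, where the exact sign-flip permutation test gives a two-sided p of 0.0312, the smallest possible with 6 mice; 44.7% of all genes tested also kept 1 sign in every mouse. The median difference of all genes was 0.19.

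Clec4g differed most, by 6.44 log2 units (SE 0.27, limma adjusted p = 9.7e-12), followed by Stab1 at 5.51 (SE 0.32, adjusted p = 1.24e-10) and Stab2 at 4.66 (SE 0.27, adjusted p = 1.53e-10). Kupffer-like levels of Stab1 were 4.36, 2.20 and 3.09 in the ND mice and 3.15, 3.04 and 3.83 in the HFD mice, and those of Stab2 4.51, 4.75, 4.61, 4.67, 4.16 and 4.81, far below the lowest endothelial-like mouse in each case. Lyve1 stood 2.36 higher in endothelial-like cells (SE 0.24), where it passed the filter, and 7.6% of Kupffer-like cells reached 10 RPKM; fitted without the filter, its limma adjusted p was 0.000946, and with RPKM averaged before the logarithm the difference was 5.21. Mrc1 differed by 1.98 (SE 0.29, limma adjusted p = 1.22e-05), with Kupffer-like levels of 5.27, 5.53, 6.10, 6.14, 3.91 and 5.97, so that it was the most evenly shared of the 4 highest endothelial members; with RPKM averaged first, its difference was 1.19 (limma adjusted p = 0.0173).

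Msr1 and Marco were higher in Kupffer-like cells. Msr1 stood there at 5.64, 4.75 and 4.87 log2(RPKM + 1) in the ND mice and 3.84, 3.42 and 3.51 in the HFD mice, an endothelial-like minus Kupffer-like difference of −1.57 (SE 0.24, limma adjusted p = 2.15e-05). This held for means of logarithms, which weigh how many cells express the gene: 56.8% of Kupffer-like cells reached 10 RPKM. When RPKM values were averaged before the logarithm, the difference was −0.40 (limma adjusted p = 0.423), and the median Kupffer-like mean RPKM was 120.8% of the endothelial-like one. For Marco, which passed the filter through Kupffer-like cells, the difference was −2.36 (SE 0.41, limma adjusted p without the filter = 0.0339), with single-mouse values from −0.62 in HFD2 to −4.34 in ND2 and a value of −6.42 when RPKM were averaged first.

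Scarb1 was the member least tied to either class. Its Kupffer-like levels of 4.40, 3.76, 2.55, 3.94, 2.85 and 4.13 were higher than the endothelial-like ones, with a difference of −0.59 (SE 0.23, 95% interval −1.08 to −0.10) and a limma adjusted p of 0.0417 that passed 0.05 in only 2 of 8 other settings (differences from −0.86 to −0.19) and was lost without ND1, HFD1 or HFD3. The 8 hepatocyte markers were all called higher in Kupffer-like cells too, with a median of −2.20 in this contrast, and their part in the Scarb1 difference was not tested. In monocyte-derived-macrophage-like cells Scarb1 ran from 1.07 to 6.28 over mice (4.02 ± 1.93, 7 to 12 cells a mouse), which overlaps both other classes. That class was not tested here, since few cells stand behind each mouse.

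**Figure D2:**
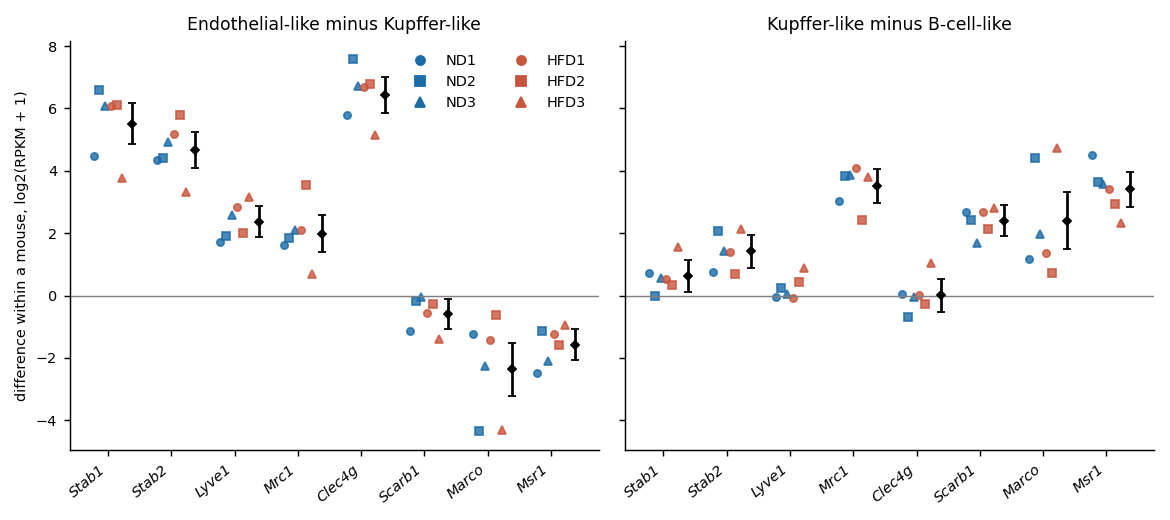
Differences in mean log2(RPKM + 1) per mouse (points; ND blue, HFD red) for endothelial-like minus Kupffer-like cells and for Kupffer-like minus B-cell-like cells, with the limma estimate and its 95% interval (black diamond and line). Clec4g is 6.44 higher in endothelial-like than in Kupffer-like cells, while its Kupffer-like minus B-cell-like interval, −0.52 to 0.54, holds 0.

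Kupffer-like cells were next set against B-cell-like cells. In this contrast, an addition made after seeing the data, 49.8% of 3558 genes passed limma's adjusted p of 0.05 (23% higher and 26.8% lower in Kupffer-like cells). All 8 hepatocyte markers were called higher in Kupffer-like cells, by a median of 3.44, with a mean marker level of 3.87 to 7.13 over mice against 1.44 to 4.42 in B-cell-like cells and no marker at 0 in every mouse of either class, and the part of hepatocyte transcripts in the differences below was not tested. Lyve1 did not pass the filter on low values. Marco and Msr1 passed it only through Kupffer-like cells, since their B-cell-like means were 0.85 and 0.93. Mrc1 stood 3.51 higher (SE 0.26, limma adjusted p = 2.98e-09), and Scarb1 2.41 higher (SE 0.24, limma adjusted p = 1.26e-07), which is less than the median of the hepatocyte markers. Scarb1 in hepatocyte-like cells was at 2.09 ± 1.07 (SD, n = 6 mice, 1 to 12 cells a mouse). Msr1 stood 3.40 higher (SE 0.27, limma adjusted p without the filter = 0.000724), or 5.30 with RPKM averaged first. Marco stood 2.39 higher (SE 0.44), with single-mouse differences of 0.73 to 4.73 and values of 2.09 to 6.50 over the 8 other settings that kept all mice, and it was not called when the fit had no filter (limma adjusted p = 0.0524). Stab2 was 1.41 higher (SE 0.26, limma adjusted p = 0.000146), with a positive difference in 6 of 6 mice, where 43.9% of genes kept 1 sign in all mice, and 2.30 higher with RPKM averaged first. Stab1 was 0.62 higher (SE 0.25), with a limma adjusted p of 0.0455 that was lost in 6 of 8 other settings (differences of 0.17 to 1.37) and without ND1, ND3, HFD1 or HFD3. Clec4g did not differ beyond its error (0.01, limma adjusted p = 0.975).

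The low levels in Kupffer-like cells can also be read as a share of the endothelial-like mean RPKM of the same mouse. The median over mice was 1.83% for Clec4g, 2.35% for Stab1 and 5.08% for Stab2 (3.60% to 12.1%), against a median of 2.17% for the 14 endothelial markers, of which 12 lay between 1.20% and 2.92%. Mrc1 was at 45% (29.2% to 55.5%), near the endothelial cadherin gene Cdh5 at 42.7%, the highest of the endothelial markers. In B-cell-like cells Clec4g, Stab1, Stab2 and Mrc1 were at 1.20%, 0.870%, 1.03% and 1.34%, beside a marker median of 0.951%. Of 13 endothelial markers tested between Kupffer-like and B-cell-like cells, 2 were called higher and 1 lower in Kupffer-like cells, where 49.8% of all genes were called.

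Single Kupffer-like cells with much Clec4g or Stab1 were cells with other endothelial transcripts. The 47 Kupffer-like cells with Clec4g at 100 RPKM or more had a median level of 4.71 over the 14 endothelial markers, against 2.55 in the other Kupffer-like cells, and the 18 cells with Stab1 at that level had 5.74 against 2.79. For Stab2 the medians were 3.75 in 43 cells and 2.79 in the rest. For Marco they were 3.03 in 70 cells and 2.79 in the rest. The median was lower for Mrc1, at 2.65 in the 45.2% of cells with 100 RPKM or more against 2.98 in the others. For Msr1 it was 2.54 in 87 cells against 3.03. These medians pool the cells of all mice. Within mice, the mean correlation with the endothelial marker level over the 250 cells was 0.65 for Clec4g, 0.58 for Stab1, 0.49 for Stab2 and −0.03 for Mrc1. When the 45 Kupffer-like cells with a marker level of 4 or more were left out, an alternative chosen after seeing the data, Stab2 was still 1.08 above B-cell-like cells (limma adjusted p = 0.00203), whereas Stab1 was 0.17 above them (adjusted p = 0.557) and the difference for Clec4g was −0.49 (adjusted p = 0.0712). How these transcripts came into the same cell, or into its well, was not tested.

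**Figure D3:**
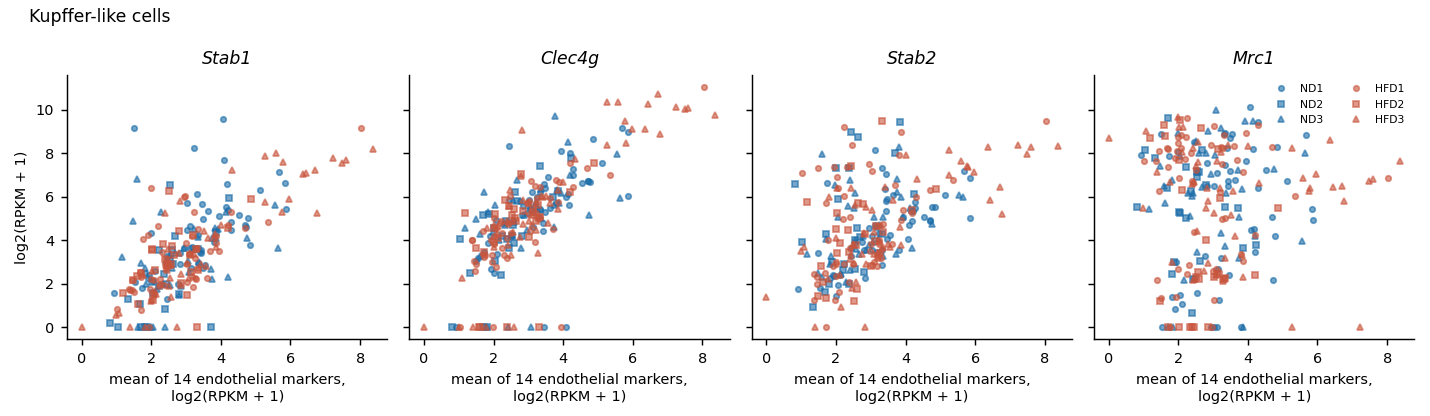
Each point is 1 of 250 Kupffer-like cells, with the mean log2(RPKM + 1) of 14 endothelial markers on the x axis and the log2(RPKM + 1) of Stab1, Clec4g, Stab2 or Mrc1 on the y axis. Stab1 and Clec4g climb with the marker level (mean within-mouse r of 0.58 and 0.65), and Mrc1 does not (−0.03).

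In Kupffer-like cells, the share of cells with Marco differed widely between mice. At 10 RPKM or more it was found in 10 of 53, 13 of 24 and 13 of 39 cells of ND1 to ND3 and in 9 of 54, 2 of 27 and 48 of 53 cells of HFD1 to HFD3, and the highest cell reached 4407 RPKM. The mouse levels of 1.50, 5.19, 2.91, 1.75, 0.73 and 7.36 spread over a wider range than those of any other member in these cells, with HFD3 highest and HFD2 lowest on the same diet. Msr1 and Marco were found together at 10 RPKM in 50 of 250 Kupffer-like cells, Msr1 alone in 92, Marco alone in 45 and neither in 63.

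**Figure D4:**
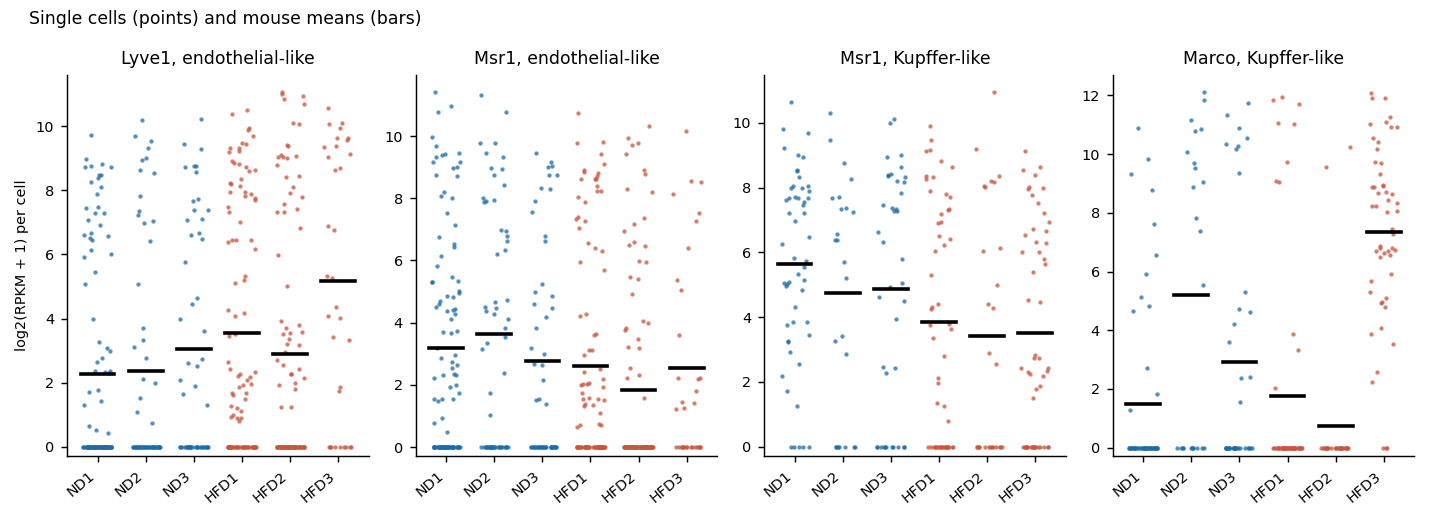
Single-cell log2(RPKM + 1) of Lyve1 and Msr1 in endothelial-like cells and of Msr1 and Marco in Kupffer-like cells, by mouse, with a bar at each mouse's mean. Many cells lie at 0 while others reach high levels, except for Marco in HFD3, where 48 of 53 cells reach 10 RPKM.

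Endothelial-like cells were also compared with B-cell-like cells, a contrast likewise added after seeing the data, in which 52.4% of 4061 genes were called (31.2% higher and 21.1% lower in endothelial-like cells). The differences were 6.45 for Clec4g, 6.13 for Stab1, 6.07 for Stab2, 5.49 for Mrc1, 2.61 for Lyve1, 1.83 for Msr1 and 1.81 for Scarb1. With RPKM averaged before the logarithm the last 3 were 6.02 for Lyve1, 4.90 for Msr1 and 2.88 for Scarb1. Lyve1 and Msr1 passed the filter only through endothelial-like cells, and their limma adjusted p without it was 0.0017 and 0.00097. Marco did not pass the filter, and its unfitted difference was 0.03. The 8 hepatocyte markers were all called higher in endothelial-like than in B-cell-like cells, by a median of 1.03, and their part in the members' differences was not tested.

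Other receptors and endocytic genes divided between the classes in their own ways. Of 20 other scavenger receptors listed, 17 were in the table and 10 passed the filter between endothelial-like and Kupffer-like cells, of which Lrp1, Cd163, Clec7a and Cd14 did so only through Kupffer-like cells. Of the other 6, 3 were called higher in endothelial-like cells, 2 lower and 1 not, where 31.1% of all genes were called higher and 18.8% lower. Higher were Cd36, a fatty acid and thrombospondin receptor, by 2.19 (SE 0.29), Scarf1 by 2.16 (SE 0.26) and the chemokine and scavenger receptor Cxcl16 by 1.20 (SE 0.30). Lower were Cd68, a lysosomal membrane protein of macrophages (−6.77, SE 0.36), and the hyaluronan receptor Cd44 (−2.93, SE 0.30). Given as a description, since the filter fixed their direction, Lrp1, a large endocytic lipoprotein receptor, averaged 5.37 log2(RPKM + 1) in Kupffer-like and 0.70 in endothelial-like cells, and the haemoglobin-haptoglobin receptor Cd163 4.59 and 0.52.

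Of the 20 endocytic lectins, adaptors and coat genes listed, 19 were in the table and 13 were tested between endothelial-like and Kupffer-like cells, of which Pla2r1 and Ap2a1 passed the filter only through endothelial-like cells. Of the other 11, 6 were called higher in endothelial-like cells, 0 lower and 5 not, where 49.9% of all genes were called and 31.1% called higher. The leading genes were Ehd3, an endosomal recycling ATPase, at 6.01 (SE 0.27), the inhibitory IgG receptor Fcgr2b at 5.68 (SE 0.28) and the hyaluronidase Hyal2 at 4.03 (SE 0.27). The clathrin adaptor Dab2 was 3.11 higher (SE 0.24), and the clathrin heavy chain gene Cltc 0.89 higher (SE 0.22). The AP-2 subunit genes Ap2a1, Ap2b1 and Ap2m1 were not called, with differences of 0.43, 0.18 and 0.27, while Ap2s1 was 1.14 higher.

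The genes whose pattern was most like that of each member were sought among 6712 genes over 30 points, the 5 classes in 6 mice. For Stab1 these were Oit3 (Pearson's r = 0.995), Eng and Aqp1, for Stab2 Dnase1l3 (0.986), Oit3 and Aqp1, and for Clec4g Ptprb (0.993), Igfbp7 and Egfl7. Mrc1 followed Sepp1 (0.983), Cdh5 and Ctsl, which shared its intermediate Kupffer-like level: Sepp1 averaged 13.04 log2(RPKM + 1) in endothelial-like and 10.56 in Kupffer-like cells. Lyve1 was most like Mxra8 (0.973), Adamts1 and Fgd5, Msr1 most like Lgmn (0.877), Aldh2 and Lamp1, Marco most like Pla2g15 (0.900), Rdh7 and Hebp1, and Scarb1 most like Leprot (0.809), Psap and Rin2. The points share mice, and the values describe likeness over classes.

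Whether diet changed the receptors was asked separately in each class, with 3 mice against 3. No member passed limma's adjusted p of 0.05. In endothelial-like cells 0 of 4215 genes did, and 3.16% had an unadjusted p under 0.05; in Kupffer-like cells 1 of 3372 did (0.0297%), with 62 (1.84%) at an unadjusted p under 0.05. Depth in endothelial-like cells ran with diet, at a median of 89254, 115207 and 84305 exon reads a cell in the ND mice and of 236617, 126781 and 147738 in the HFD mice, without overlap; in Kupffer-like cells the diets overlapped (68954 to 86329 against 58818 to 159963). The smaller endothelial-like cluster held 0, 19 and 3 cells of ND1 to ND3 and 16, 93 and 1 of HFD1 to HFD3, and the larger one 108, 41, 51, 87, 8 and 32 in the same order. In the larger cluster alone, Msr1 was at 3.17, 3.83 and 2.84 on ND and at 2.72, 2.04 and 2.64 on HFD, the HFD2 value from 8 cells, and Stab2 in HFD2 was at 8.07 there against 10.09 in the smaller cluster. The part of depth and of this split in the values below was not tested. Left without HFD3, the endothelial-like contrast called 39 genes, none of them a member.

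Msr1 had the lower levels on HFD in both classes. In Kupffer-like cells the ND mice (5.64, 4.75 and 4.87) all stood above the HFD mice (3.84, 3.42 and 3.51), a difference of −1.50 (SE 0.52, 95% interval −2.59 to −0.41, unadjusted limma p = 0.0101). An exact two-sided permutation test over the 6 mice gave p = 0.1, which is as low as it can go with 3 mice a diet, and 4.15% of all genes tested were likewise lower on HFD without overlap. In endothelial-like cells Msr1 was at 3.17, 3.62 and 2.78 on ND and at 2.61, 1.84 and 2.56 on HFD, also without overlap, a difference of −0.85 (SE 0.44, 95% interval −1.76 to 0.05, unadjusted limma p = 0.0641), where 5.39% of genes were lower without overlap. The median of all genes was itself −0.16 in Kupffer-like and −0.15 in endothelial-like cells. Relative to B-cell-like cells of the same mouse, endothelial-like Msr1 was 2.04, 2.53 and 1.48 higher on ND. On HFD it was 2.19, 1.35 and 1.39 higher, so that the diets overlapped. For Kupffer-like cells the same differences were 4.51, 3.65 and 3.58 on ND and 3.42, 2.92 and 2.34 on HFD, without overlap. Some marker lists were also lower on HFD by their medians, with no listed marker called. In endothelial-like cells the medians were −0.88 for 10 Kupffer markers and −0.79 for 8 hepatocyte markers, close to the Msr1 value. In Kupffer-like cells they were −0.82 for the hepatocyte markers and −0.37 for the 11 markers of the class itself. Other lists were higher on HFD. In Kupffer-like cells 13 endothelial markers were at 0.22 and 3 neutrophil markers at 0.03. There 1 stellate and 1 NK marker were at 0.40 and 0.88. In endothelial-like cells 3 conventional dendritic, 2 stellate and 1 NK marker were at 0.09, 0.07 and 0.01. The remaining lists with tested markers were lower. The part of such transcripts in the Msr1 difference was not tested. By cells, Msr1 reached 10 RPKM in 40 of 53, 14 of 24 and 25 of 39 Kupffer-like cells of the ND mice and in 28 of 54, 12 of 27 and 23 of 53 of the HFD mice. Leaving out each mouse in turn, the Kupffer-like difference ran from −1.67 to −1.22 and the endothelial-like one from −1.06 to −0.61. Over the 8 other settings the Kupffer-like difference ran from −2.08 with a pseudocount of 0.1 to −0.65 with RPKM averaged first.

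Lyve1 in endothelial-like cells was 1.31 higher on HFD (SE 0.51, 95% interval 0.24 to 2.37, unadjusted limma p = 0.0186), but the groups overlapped, since HFD2 at 2.90 lay below ND3 at 3.06, and the exact permutation p was 0.2. Without HFD3, the highest mouse, the difference was 0.66. In Kupffer-like cells Lyve1 did not pass the filter on low values. Its levels (0.47 to 0.56 on ND, 0.71, 0.91 and 2.01 on HFD) did not overlap. The same was so in that direction for 0.890% of the genes tested, which had passed the filter and do not include Lyve1. These Lyve1 levels lay near those of B-cell-like cells, with means over mice of 0.85 and 0.61 and a positive difference in 4 of 6 mice.

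The remaining members showed no diet difference beyond their error. In endothelial-like cells the 95% intervals of HFD minus ND were −1.24 to 0.71 for Stab1, −0.91 to 1.13 for Stab2, −1.03 to 0.98 for Mrc1, −1.28 to 0.46 for Clec4g and −1.14 to 0.71 for Scarb1, so that changes of about 1 log2 unit were not excluded. In Kupffer-like cells the interval for Marco, −2.51 to 2.67, was the widest. A test of whether the diet effect differed between the classes called 0 of 3912 genes (94, or 2.4%, at an unadjusted p under 0.05), and Msr1 was at 0.65 there (95% interval −0.35 to 1.64). Neither the other scavenger receptors nor the endocytic genes held a called member on diet; Cd36 in endothelial-like cells, named here because it also appears in the zonation contrast, was 1.99 higher on HFD (SE 0.47, limma adjusted p = 0.547).

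Endothelial cells of the liver lobule differ between the portal end, where blood enters, and the central vein, where it leaves. Endothelial-like cells were therefore scored by 6 pericentral and 5 periportal landmark genes, none of them a member, and the upper and lower tertile of each mouse were compared, with 100 of 459 cells within 0.1 of a tertile boundary. Of 4366 genes tested, 37 (0.847%) were called, 27 higher and 10 lower (0.229%) in pericentral-leaning cells. Msr1 was the only one of 7 members tested that was called.

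Msr1 was lower in pericentral-leaning cells in 6 of 6 mice (exact sign-flip permutation p = 0.0312; 6.18% of genes kept 1 sign in all mice), with differences of −1.72, −4.99 and −2.34 log2 units in the ND mice and of −2.98, −2.33 and −4.23 in the HFD mice. The estimate of −3.10 (SE 0.39, limma adjusted p = 0.00114) had the smallest p of all genes tested and was the largest lower difference among the calls. Mean levels went from 4.47 ± 1.24 in the periportal-leaning tertile through 2.43 ± 0.71 in the middle to 1.38 ± 0.61 in the pericentral-leaning tertile (SD, n = 6 mice), and the share of cells at 10 RPKM from 57.8% through 33.9% to 12.3%. In HFD3, 0 of 11 pericentral-leaning cells reached 10 RPKM, and in ND2 85% of 20 periportal-leaning cells did. The median number of genes detected was higher in the pericentral-leaning than in the periportal-leaning tertile (3259.5 against 3007.5 in ND1, for example), except in HFD3 (3539 against 3566). The part of this in the Msr1 difference was not tested. The call held without each mouse in turn (limma adjusted p between 0.00104 and 0.0119) and was lost in 4 of 8 other settings, in which 0 genes were called: with a mean-variance trend (0.446), with each gene's own spread (0.379), with no filter (0.311) and with RPKM averaged before the logarithm (0.648, difference −2.91).

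**Figure D5:**
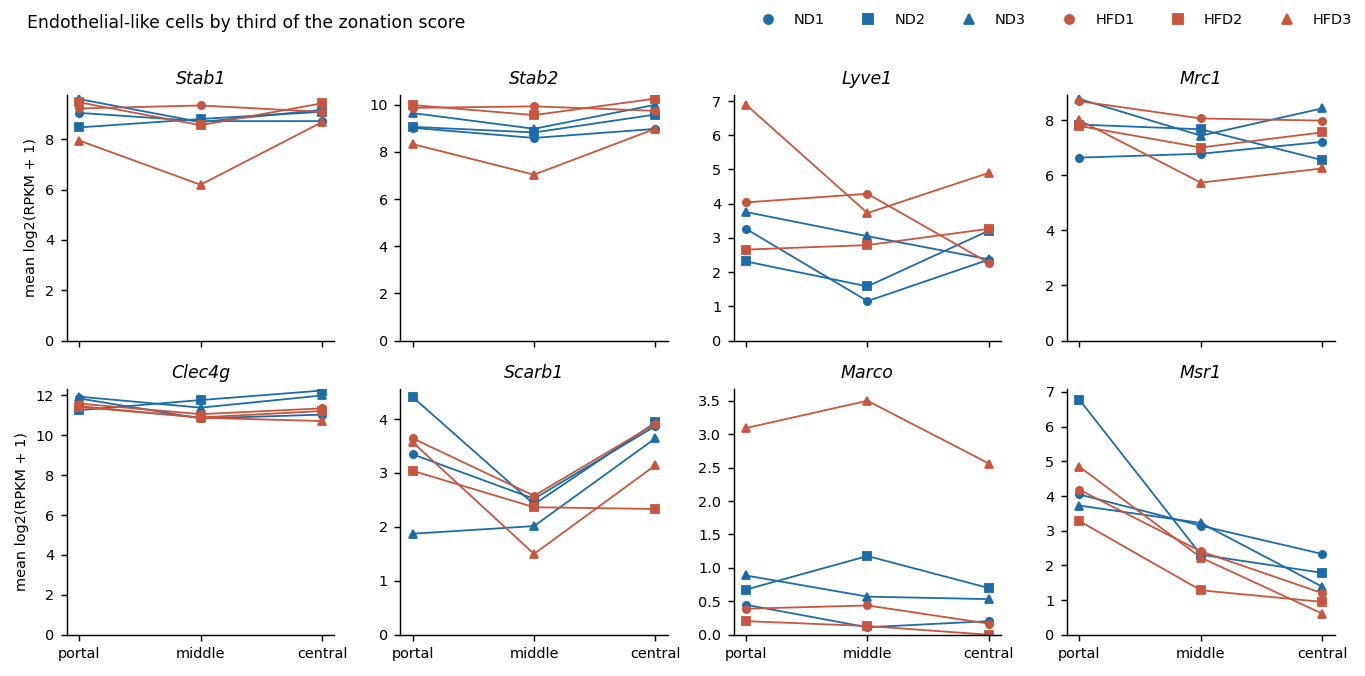
Mean log2(RPKM + 1) of each member in the periportal-leaning, middle and pericentral-leaning tertiles of endothelial-like cells, with a line for each mouse (ND blue, HFD red). Msr1 falls from left to right in every mouse, from a mean of 4.47 to 1.38, while the other members follow no common slope.

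The other members tested were not called along this score. Lyve1 was at −0.76 (SE 0.38, limma adjusted p = 0.52) and Mrc1 at −0.62 (SE 0.32, adjusted p = 0.525), the latter lower in 5 of 6 mice. Stab1 (0.07), Stab2 (0.27), Clec4g (−0.16) and Scarb1 (0.16) were not called, with 95% intervals within ±1 log2 unit. Marco did not pass the filter. Of the other scavenger receptors, Cd36 was lower in pericentral-leaning cells (−2.32, SE 0.40, limma adjusted p = 0.0111), 1 of 5 tested, and no endocytic gene of 13 was called.

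Transcripts of hepatocytes moved with the same score. The mean level of the 8 hepatocyte markers was higher in the periportal-leaning than in the pericentral-leaning tertile of every mouse (5.74 against 4.59 in ND1, and 2.23 against 1.43 in HFD2, for example), and 3 of the 8 were called lower in pericentral-leaning cells, Alb (−1.72), Apoc3 (−1.47) and Apoa1 (−1.40). Serpina3k (−1.92), Mup20 (−1.71) and Mup3 (−1.59), which were not on the marker list, were called lower too. The part of hepatocyte transcripts in the Msr1 difference was not tested. Msr1 in the hepatocyte-like class was at 0.82 ± 0.78, below the endothelial-like level of 2.76. Of the Kupffer markers, 0 of 10 tested were called, with a median of 0.07.

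Kupffer-like cells were last divided by Timd4, a phosphatidylserine receptor of long-lived resident Kupffer cells, into cells with at least 1 RPKM and 75 cells with less. No gene of 3381 was called by limma in this contrast (9.58% at an unadjusted p under 0.05, and 41 when classes were set by the highest marker value). Msr1 was higher in cells with Timd4 in 6 of 6 mice, by 1.56, 3.78 and 1.73 in the ND mice and 1.13, 1.52 and 1.27 in the HFD mice (exact sign-flip permutation p = 0.0312, the smallest possible), as 5.38% of genes kept 1 sign in all mice. The levels were 4.88 ± 0.98 with and 3.05 ± 1.07 without Timd4 (SD, n = 6 mice), a difference of 1.83 (SE 0.41) with a limma adjusted p of 0.0931, between 0.00597 and 0.791 over the other settings, in which the difference ran from 0.99 with a Timd4 threshold of 10 RPKM to 2.68. The cells without Timd4 were few in ND2 (4 cells), and cells with Timd4 had more genes detected in 5 of 6 mice. For Clec4g the difference was −0.87 (95% interval −1.72 to −0.02, limma adjusted p = 0.498) and −0.52 without HFD3, whose own value was −2.62, and the endothelial markers had a median of −0.65 in the same contrast. Mrc1 (0.53), Scarb1 (0.44), Marco (−0.21), Stab1 (−0.63) and Stab2 (−0.16) had signs that differed between mice.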

How the data were processed

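The deposited values were RPKM per gene and cell, made by the authors with rpkmforgenes on RefSeq genes after demultiplexing with bcl2fastq and alignment of single reads to mm10 with STAR; low-quality cells and doublets had been removed by the authors. Each of the 1470 columns is 1 cell. Rows were taken by symbol. Cells were clustered (scikit-learn 1.9.0, Python 3.11.15) on log2(RPKM + 1) of 1000 variable genes without the 8 members, 20 principal components and 12 clusters, named from 101 measured markers. A first choice of variable genes by variance gathered cells with few genes and was replaced by excess variation before any test. Per-mouse means were tested with limma 3.58.1 (R 4.3.3), without a trend, with mouse as a block within classes and Benjamini-Hochberg adjustment, on genes whose mean level reached 1; single genes also by exact permutation over mice. The tests were tried on simulated data. Intervals are limma's 95% intervals. Reads per cell were estimated from the spacing of low RPKM values: 76.9% were within 0.1 of a whole read, against 21.4% with shuffled gene lengths, and 9 cells gave no estimate. Named genes were the members, the 3 most similar genes each, and the leading called genes of 2 lists (3 of their genes were among the clustering genes). Members and lists were chosen with earlier results of these data known. Diet length and age are from the study's methods. Without molecular identifiers, shares of cells and levels also carry amplification error.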

Additional observations from a re-analysis of the deposited data

Results flagged for a closer look

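The difference in Msr1 between Kupffer-like cells with and without Timd4 was 3.78 log2 units in ND2, against 1.13 to 1.73 in the other 5 mice. That gap made up 0.772 of the whole range, above Dixon's critical value of 0.625 for 6 mice. The ND2 value rests on 4 cells without Timd4 and 20 with it. Of the 36 values examined this way 1 stood out, and chance alone picks about 1 in 20. Without ND2 the difference was 1.44 (limma adjusted p = 0.181).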

How the results depend on the processing

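Counts of genes called moved with the setting. Between endothelial-like and Kupffer-like cells 3345 genes were called without a filter, and 3314 between endothelial-like and B-cell-like cells. For diet in endothelial-like cells 1 gene was called with a pseudocount of 0.1, 2 with a trend and 1 with classes by the highest marker value. For diet in Kupffer-like cells 0 were called without a filter, with RPKM averaged before the logarithm, with each gene's own spread and with classes by marker value, and 2 with a trend. Along the zonation score 0 were called without a filter, with averaged RPKM, with a trend and with own spread, and 20 when the score was split at its median, and for Timd4 41 were called with classes by marker value. Leaving out each mouse in turn, the counts ran from 0 to 39 (diet, endothelial-like; 39 without HFD3, 4 without ND3 and 1 without ND1), from 0 to 1 (diet, Kupffer-like; 0 without ND1 or ND3), from 10 (without ND3) to 59 (without HFD3) for zonation, where every omission changed the count by over 1.5 times, and from 0 to 1 for Timd4 (1 without HFD1). The causes were not tested.

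Over the members' alternatives, 728 values kept their direction and side of the threshold, 25 lost the call, 1 gained it and 51 changed sign, the last all among values not called. With RPKM averaged before the logarithm, the Kupffer-like diet differences became 0.25 for Stab2, 0.072 for Mrc1 and −0.17 for Marco, the differences in diet effect −0.37 for Lyve1, −0.10 for Mrc1 and −0.023 for Msr1, the zonation difference −0.27 for Scarb1 and the Timd4 difference 0.92 for Marco. With classes by marker value, the Kupffer-like diet differences were 0.029 for Stab2 and −0.070 for Scarb1, the difference in diet effect −0.22 for Mrc1, and Kupffer-like minus B-cell-like −0.10 for Clec4g, which was also −0.11 with a pseudocount of 0.1, −0.22 with cells rescaled to the same sum and −0.49 without cells high in endothelial markers. Without single mice the ranges that crossed 0 were, for diet in endothelial-like cells, Stab1 −0.54 to 0.26, Stab2 −0.21 to 0.70, Mrc1 −0.43 to 0.37, Scarb1 −0.52 to 0.021 and, for diet in Kupffer-like cells, Stab1 −0.38 to 0.70, Stab2 −0.21 to 0.12, Mrc1 −0.69 to 0.43, Clec4g −0.37 to 0.37, Scarb1 −0.44 to 0.48, Marco −1.96 to 1.36 and, for the difference in diet effect, Stab1 −1.01 to 0.39, Stab2 −0.32 to 0.91, Mrc1 −0.45 to 0.98, Clec4g −0.95 to 0.035, Scarb1 −0.63 to 0.041, Marco −0.37 to 1.59 and, for zonation, Stab1 −0.062 to 0.17, Scarb1 −0.16 to 0.33 and, for Timd4, Stab2 −0.32 to 0.023, Mrc1 −0.011 to 0.84, Marco −0.61 to 0.16 and, for Kupffer-like minus B-cell-like, Clec4g −0.20 to 0.15. Mouse numbers did not pair the samples (correlations of same-numbered mice −0.12 to 0.09); with the replicate number as a block, 0 genes were called for diet in endothelial-like cells, 1 in Kupffer-like cells and 0 for the difference. Per-mouse depth and 24 to 54 Kupffer-like cells limit what could be seen for patchy genes such as Marco and Lyve1.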
